A study of Mus musculus with 2 samples.

Results

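The Siglec family of sialic acid-binding lectins was examined in RNA from the small intestine of mice that carry an interleukin 9 (IL-9) transgene and of wild-type (WT) mice. The family was taken as 6 genes, Siglecf, Siglece, Siglecg, Cd33, Siglech and Siglec1, and all probe sets annotated to them were read, which gave 8 of the 45101 probe sets on the array. A probe set is a group of short probes for 1 transcript. Siglec1 had 3 probe sets and each of the other 5 genes had 1. The transgenic (TG) group was a single pool of 3 IL-9 transgenic mice, and the WT group was a single pool of 3 mice without the transgene. Both were on the BALB/c background, 6 to 8 weeks old and untreated, and each pool was hybridised to 1 Affymetrix mouse array. The labels do not give the promoter, the cell type or the part of the Il9 gene that the transgene holds. There was no replicate array, so every value below is 1 measurement of pooled tissue, the spread between mice is unknown and no p-value is given.

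Siglecs are receptors of the cell surface, mostly on blood cells, that read sialic acids at the ends of sugar chains on their own or neighbouring cells. Most of the group related to CD33 carry tyrosine-based inhibitory motifs in the tail, which bring in the phosphatases encoded by Ptpn6 and Ptpn11 and restrain activation. Siglec-H lacks such motifs and signals through the adaptor encoded by Tyrobp, and Siglec1, or sialoadhesin, is a macrophage adhesion receptor. In the mouse, Siglec-F is a surface marker of eosinophils and is also found on intestinal tuft cells, the chemosensory cells of the epithelium.

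Siglecf stood apart from the rest of the family, and Cd33 came next. The start regions of these 2 genes are shown because they were also the pair with the longest shared run of bases. Sequences are from RefSeq on mouse build GRCm38.p6, from 250 bases before to 50 bases after the annotated start, which for Siglecf is chr7:43351091-43351390 on the plus strand and for Cd33 is chr7:43533122-43533421 on the minus strand. Capitals mark every exact run of at least 12 bases that the 2 windows share.
Siglecf: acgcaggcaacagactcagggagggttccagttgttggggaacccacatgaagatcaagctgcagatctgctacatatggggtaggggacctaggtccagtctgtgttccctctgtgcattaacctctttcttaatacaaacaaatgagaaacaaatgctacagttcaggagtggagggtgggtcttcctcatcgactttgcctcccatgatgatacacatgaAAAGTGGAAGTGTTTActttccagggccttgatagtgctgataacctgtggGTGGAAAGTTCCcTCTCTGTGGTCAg
Cd33: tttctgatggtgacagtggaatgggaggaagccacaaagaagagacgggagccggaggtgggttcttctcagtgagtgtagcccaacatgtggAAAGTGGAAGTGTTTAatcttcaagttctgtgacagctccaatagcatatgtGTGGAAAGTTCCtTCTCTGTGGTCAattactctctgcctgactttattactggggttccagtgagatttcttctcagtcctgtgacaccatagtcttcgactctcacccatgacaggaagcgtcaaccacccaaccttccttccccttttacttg

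The windows shared 3 such runs, 40 bases in all, in the same order in both genes. The longest had 16 bases and began 27 bases before the Siglecf start and 157 bases before the Cd33 start. It occurred in 2 of 32851 start windows in the RefSeq table, those of Siglecf and Cd33. The shorter runs began after the Siglecf start, at bases 25 and 38 counted from it. In Cd33 they began 105 and 92 bases before the start. The best local alignment of the pair had 62 identical bases over 80 aligned columns. Start windows were at hand for 5 of the 6 genes, with Siglecg represented by 2 windows, and in the other 13 pairs of windows the longest shared run had 8 to 10 bases. The first run holds the letters GGAAGTG, a form of the ETS family motif, and the last holds TGTGGT, the core of the RUNX family motif. On either strand GGAAGTG was present in 11% of all start windows and TGTGGT in 16.8%, and each also matched once in the Siglech window. The GATA-type letters TGATAA matched once in the Siglecf window and in 9.05% of all windows, and the octamer ATGCAAAT matched in none of the windows of the family and in 1.74% of all windows. These motifs do not overlap one another. They were chosen after the sequences had been seen, and a match describes letters only.

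Differences are given as log2(intensity + 1) in the TG pool minus the same in the WT pool, and a ratio is on that scale. A probe set was counted as higher or lower when it differed by 2-fold, a log2 difference of 1. Of the 8 probe sets, 1 was higher by 2-fold and 0 were lower. Over all probe sets 0.277% were higher by 2-fold and 0.111% were lower. By gene, 1 of 6 was higher by 2-fold, against 0.412% of all 18194 genes each read by its brightest probe set. The remaining 7 probe sets of the family lay between -0.23 and 0.49. Counted by gene, 4 lay above 0 and 2 below, with a median of 0.13, while 51.3% of all genes lay above 0 with a median of 0.01. As a scale for the spread between probe sets, those for the same gene differed among themselves with an SD of 0.23 (log2). It was taken over 4965 genes that had several past the filter described next, so it does not cover dimmer probe sets. This figure does not hold the spread between repeat arrays or between mice.

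**Figure D1:**
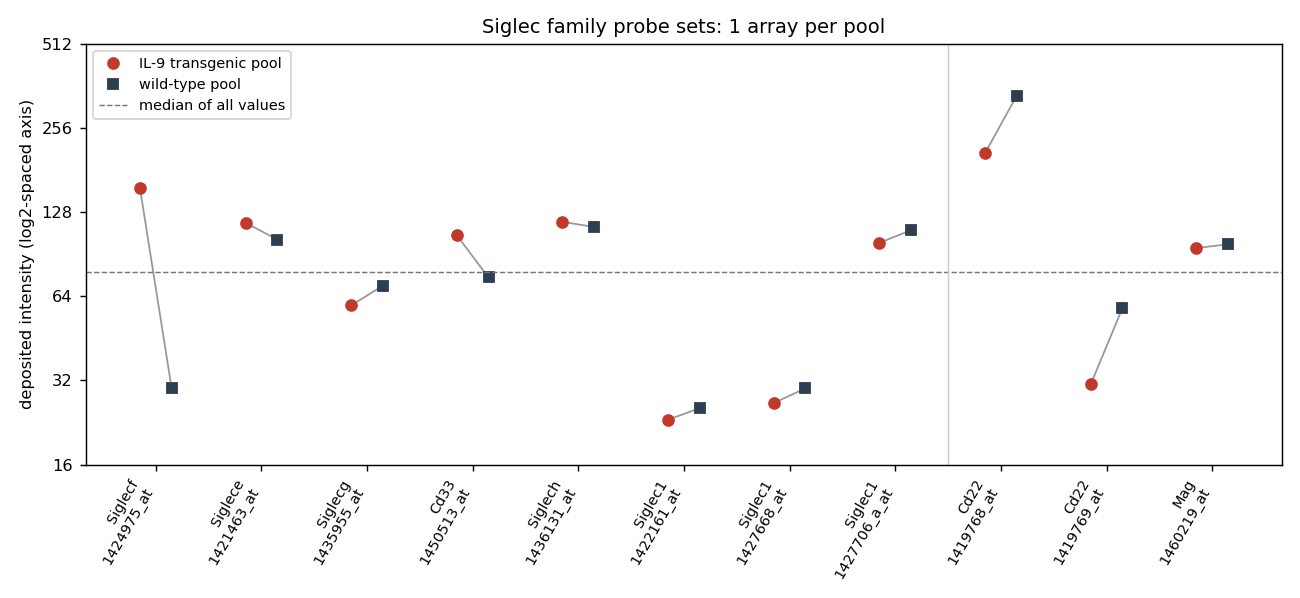
Deposited intensity (log2-spaced axis) of each Siglec probe set in the IL-9 transgenic pool (red circles) and the wild-type pool (dark squares), with the 3 probe sets of Cd22 and Mag right of the grey line and the median of all values dashed. Siglecf reads 156 (TG) and 30.0 (WT), while the other 5 genes differ by at most 1.41-fold.

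As a filter on low values, at least 1 of the 2 readings had to reach the median over both arrays, an intensity of 78.5. Of the 8 probe sets 5 passed and 3 did not. Those of Siglecf and Cd33 passed through the TG pool alone, so that passing already needed a higher TG value, and nothing is read from the count that passed. Those of Siglece, Siglech and the brightest of Siglec1 passed on both arrays. The files hold no detection calls, so a low reading is not called absence.

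Among the inhibitory receptors related to CD33, Siglecf read 156 in the TG pool and 30.0 in the WT pool. The log2 difference was 2.34, a ratio of 5.07. The WT value lay below the median of the array and the TG value above it. This was rank 20 from the highest among 45101 probe sets, and rank 13 among 18194 genes. Among the 7974 probe sets with a mean log2 level within 0.5 of that of Siglecf, 22 were higher by 2-fold, 0.276%, and 0.0752% were lower. A total of 4, Siglecf included, differed by at least as much as it in either direction. The middle 95% of these probe sets lay between -0.47 and 0.45. In whole tissue a higher share of the cells that carry a transcript and more transcript per cell cannot be told apart.

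**Figure D2:**
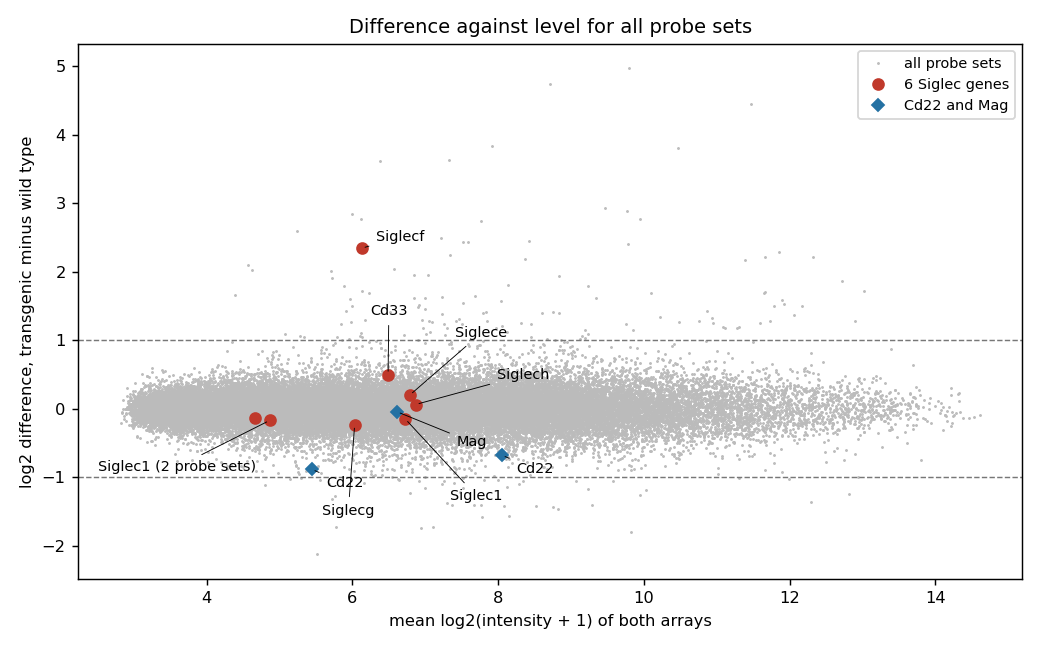
Log2 difference (transgenic minus wild type) against mean log2(intensity + 1) of both arrays for all 45101 probe sets (grey), with the 8 Siglec probe sets in red, Cd22 and Mag in blue, and 2-fold dashed. Siglecf lies at 2.34, outside the grey band of its level, and the other 7 red points lie within 0.49 of 0.

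Cd33, which gave the group its name, read 106 in the TG pool and 74.7 in the WT pool. The log2 difference was 0.49, a ratio of 1.41, under 2-fold but over the SD of 0.23. Of the 7691 probe sets within 0.5 of its mean log2 level, 4.41% differed by at least as much in either direction. Cd33 was therefore at the edge of what probe sets of its level showed, and it has no second probe set here to set beside it.

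Siglece, an inhibitory receptor of neutrophils, monocytes and macrophages, read 117 in the TG pool and 102 in the WT pool, a log2 difference of 0.20. Siglecg, an inhibitory receptor of B cells, read 59.4 in the TG pool and 69.9 in the WT pool, a difference of -0.23. The first difference was smaller than the SD between probe sets of one gene and the second was about equal to it. Siglecg lay below the median of the array in both pools, a level that this SD does not cover. At the level of Siglece 34.0% of probe sets differed by at least as much in either direction, and at the level of Siglecg 24.9% did.

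Siglech, the marker of plasmacytoid dendritic cells, read 118 in the TG pool and 113 in the WT pool. Its difference of 0.06 was the smallest of the family. Tyrobp, its signalling adaptor, read 638 in the TG pool and 500.0 in the WT pool, a difference of 0.35.

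Siglec1 was the one gene of the family with more than 1 probe set, and all 3 lay slightly below 0. The brightest read 99.5 in the TG pool and 110 in the WT pool, a log2 difference of -0.15. The second read 26.5 in the TG pool and 30.0 in the WT pool, a difference of -0.17. The dimmest read 23.1 in the TG pool and 25.5 in the WT pool, a difference of -0.13. The SD of these 3 differences was 0.018, a spread between probe sets on the same arrays and not between repeats. Each difference was smaller than 0.23, a scale that does not cover the dimmer probe sets. Between 36.5% and 47.7% of probe sets at their levels differed by at least as much.

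Cd22 and Mag belong to the wider family. Cd22, an inhibitory co-receptor of B cells, had 2 probe sets, and both were lower in the TG pool. The brighter read 208 in the TG pool and 334 in the WT pool, a log2 difference of -0.68. The dimmer read 31.0 in the TG pool and 58.0 in the WT pool, a difference of -0.89, with both values below the median of the array. Neither reached 2-fold, and at their levels 1.72% and 0.383% of probe sets differed by at least as much in either direction. Mag, the myelin-associated glycoprotein of glia, read 95.3 in the TG pool and 98.2 in the WT pool, a difference of -0.04. Siglec15 was not analysed here.

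The measured genes that lie between Siglecf and Siglece on the chromosome showed no difference as large as that of Siglecf. By the gene order of RefSeq, 4 of the 6 genes, Siglecf, Siglecg, Cd33 and Siglece, lie in one stretch with 16 other genes between the outer ones. Of these, 11 were measured, 0 were past 2-fold either way, and their log2 differences ran from -0.26 to 0.36. Over all genes 0.412% were higher by 2-fold and 0.132% lower, so 0 among 11 is near the share of all genes. Genes on the other side of Siglecf were not read.

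The 5 genes nearest to Siglecf in the pair of log2 values were Fam221a, Fcer1a, Scgb1a1, Cyp2e1 and Gsdmcl-ps, at distances of 0.44 to 0.63 on the log2 scale over these 2 arrays. Fcer1a, the IgE-binding chain of the mast cell and basophil receptor, read 109 in the TG pool and 31.0 in the WT pool, a log2 difference of 1.79. Fam221a read 126 in the TG pool and 37.4 in the WT pool, a difference of 1.73. Scgb1a1, a secretoglobin of airway club cells, read 108 in the TG pool and 35.0 in the WT pool. With 2 arrays this likeness says only that both readings are close.

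Marker lists of cell types that carry Siglecs were read beside the members, by each gene's brightest probe set and over all measured members. The tissue label was checked first. All 7 measured small intestine epithelium genes read at least 8867 in the TG pool and at least 8686 in the WT pool. Their differences lay between -0.32, in the lactase gene Lct, and 0.09, and the Paneth cell lysozyme Lyz1 differed by -0.25. Il9 itself read 62.2 in the TG pool and 71.6 in the WT pool, a difference of -0.20. With the content of the transgene not given, this reading does not check the labels.

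Genes of the tuft cell list were higher in the TG pool, as Siglecf was. Of 20 measured markers 8 were at least 2-fold higher and 0 at least 2-fold lower. All 20 lay above 0, from 0.02 to 2.49, with a median log2 difference of 0.41. The corresponding shares of all genes were 0.412% higher by 2-fold and 51.3% above 0. Rgs13, a regulator of G protein signalling, read 352 in the TG pool and 61.7 in the WT pool, a log2 difference of 2.49. Avil, the actin regulator advillin, read 353 in the TG pool and 73.9 in the WT pool, a difference of 2.24. Dclk1, a kinase that marks these cells, differed by 1.95 and Alox5ap, of leukotriene synthesis, by 1.80. Rgs13, Avil and Dclk1 passed the filter through the TG pool alone, so passing already needed a higher TG value. The lineage factor Pou2f3 read 113 in the TG pool and 100.2 in the WT pool, a difference of 0.17, and the channel gene Trpm5 differed by 0.83. Summed over the list, intensity was 3878 in the TG pool and 2038 in the WT pool, and the lowest reading was 24.3. The list was not checked for genes that mast cells or other cells share, and mast cell genes, given below, were mostly higher as well. The part of tuft cells in the Siglecf difference was not tested.

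Eosinophil genes other than Siglecf mostly read below the median of the array in both pools, where differences are not resolved here. Of 6 measured markers 0 passed 2-fold either way and 5 lay above 0, with a median of 0.11. Over all genes 0.412% were higher by 2-fold, 0.132% were lower and 51.3% lay above 0. A count of 0 past 2-fold among 6 genes is thus near the share of all genes. The granule genes Epx and Prg2, which encode eosinophil peroxidase and major basic protein, read 20.0 and 24.9 in the TG pool and 19.4 and 28.8 in the WT pool. Ccr3, the eotaxin receptor, read 31.6 in the TG pool and 25.4 in the WT pool, a difference of 0.31. Alox15, a lipoxygenase, read 99.7 in the TG pool and 79.9 in the WT pool, a difference of 0.32, and was the 1 marker that passed the filter. The summed intensity was 238 in the TG pool and 209 in the WT pool, with a lowest reading of 10.3. Ear1, Ear2 and Ear6 were not analysed here. The part of eosinophils in the Siglecf difference was not tested.

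B cell genes were lower in the TG pool, as Cd22 was, while Siglecg differed by only -0.23. Of 9 measured markers 3 were at least 2-fold lower and 0 at least 2-fold higher. A total of 8 lay below 0, with a median of -0.57. Over all genes 0.132% were lower by 2-fold and 46.4% lay below 0. Ms4a1, which encodes CD20, read 74.9 in the TG pool and 251 in the WT pool, a difference of -1.73. Cr2, the complement receptor of follicular B cells, read 29.0 in the TG pool and 98.3 in the WT pool, also a difference of -1.73. Fcmr, the IgM receptor, differed by -1.38. Ms4a1 and Cr2 passed the filter through the WT pool alone, so passing already needed a higher WT value. The summed intensity of the list was 1346 in the TG pool and 1875 in the WT pool, with a lowest reading of 29.0. Blnk, the brightest gene of the list and the only one above 0, read 600 in the TG pool and 534 in the WT pool. Its difference was 0.17. The part of B cell content in the Cd22 difference was not tested.

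Macrophage, plasmacytoid dendritic cell and neutrophil genes, which mark cells that carry Siglec1, Siglech and Siglece, had medians near 0. Of 13 measured macrophage markers 0 passed 2-fold either way, beside 0.412% of all genes higher and 0.132% lower. Their median was 0.04, with a summed intensity of 8071 in the TG pool and 8763 in the WT pool. The largest differences there were 0.43 in Cx3cr1, the fractalkine receptor, and -0.37 in C1qb and in Lyz2. Of 13 plasmacytoid dendritic cell markers 1 was higher by 2-fold, beside 0.412% of all genes, and the median was -0.07. That gene was Klk1, a tissue kallikrein, which read 3060 in the TG pool and 1281 in the WT pool, and the next was Spib, an ETS family factor, at 0.69. Siglech itself read 118 in the TG pool and 113 in the WT pool, and the cell source of the Klk1 reading was not tested. The 8 measured neutrophil markers had a median of 0.05, and 0 of them passed the filter, so that median rests on low readings only. Ngp, the neutrophilic granule protein, and Ltf, lactoferrin, had the largest differences, 0.31 and -0.23.

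Mast cell genes are given because mast cells are named in the title of the study. Of 10 measured markers 4 were higher by 2-fold, 0 were lower and 9 lay above 0, with a median of 0.51 and a summed intensity of 5931 in the TG pool and 1354 in the WT pool. Over all genes 0.412% were higher by 2-fold and 51.3% lay above 0. The 4 were the chymases Mcpt2 and Mcpt1, Fcer1a and the carboxypeptidase Cpa3, at 2.89, 2.77, 1.79 and 1.30. Mcpt1 and Mcpt2 made up much of the summed intensity, at 2586 and 2364 in the TG pool and 378 and 319 in the WT pool. The part of mast cells in the Siglecf or Cd33 difference was not tested.

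**Figure D3:**
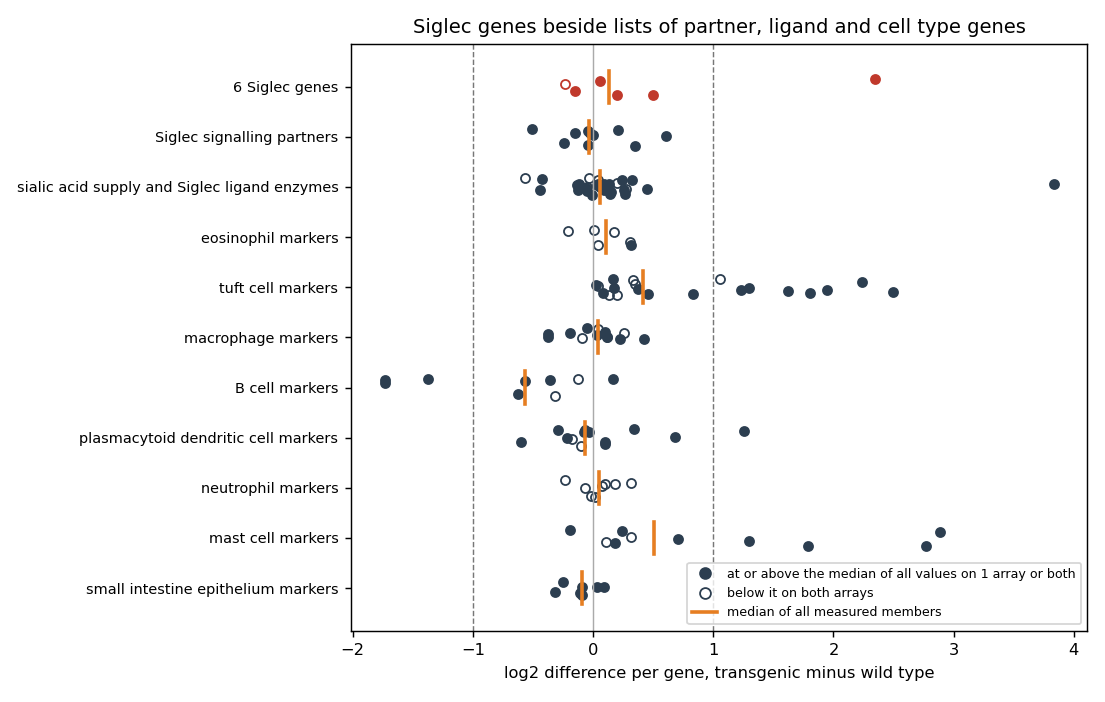
Log2 difference (transgenic minus wild type) of each measured gene by its brightest probe set, for the 6 Siglec genes (red) and 10 gene lists (dark). Filled points reached the median of all values on at least 1 array, orange bars are medians and dashed lines are 2-fold. Siglecf lies at 2.34. Tuft cell genes run from 0.02 to 2.49, mast cell genes from -0.19 to 2.89 and ligand enzymes from -0.57 to 3.83. The 6 eosinophil markers run from -0.21 to 0.32, and 1 of them passed the filter. The cell source of the Siglecf difference was not tested.

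Genes that carry the signal inward showed no difference of 2-fold. Of 10 measured partners 3 lay above 0 and 6 below, with a median of -0.03. Over all genes 0.412% were higher by 2-fold and 0.132% lower, while 51.3% lay above 0 and 46.4% below. A count of 0 past 2-fold among 10 genes is near the share of all genes, so nothing about the partners is read from it. Ptpn6, the phosphatase SHP-1, read 516 in both pools, and Ptpn11 read 642 in the TG pool and 714 in the WT pool, a difference of -0.15. The largest differences were 0.60 in Inpp5d, the inositol phosphatase SHIP-1, and -0.51 in Socs3, a suppressor of cytokine signalling.

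Among enzymes that make, trim or sulfate sialylated ligands, 1 of 32 measured genes was higher by 2-fold and 0 were lower, around a median of 0.06, beside 0.412% and 0.132% of all genes. The gene past 2-fold was St3gal4, a sialyltransferase of the alpha2,3 type, which read 911 in the TG pool and 62.9 in the WT pool, a log2 difference of 3.83. Its WT reading lay below the median of the array. Siglec-F prefers alpha2,3-linked sialic acid, in part with a sulfate on the sugar chain. Whether its ligands differed between the pools was not tested. St3gal6, of the same type, read 1556 in the TG pool and 1138 in the WT pool, a difference of 0.45. St3gal1, also of this type, read 49.1 in the TG pool and 73.3 in the WT pool, both below the median of the array, a difference of -0.57. Chst1, a sulfotransferase that acts on galactose, read 98.0 in the TG pool and 133 in the WT pool, a difference of -0.44. St6gal1, which makes the alpha2,6 linkage that CD22 binds, differed by 0.14, and Gne, the first enzyme of sialic acid synthesis, by 0.32.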

How the data were processed

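Small intestine total RNA (10 µg) of 1 IL-9 transgenic pool and 1 wild-type pool, 3 mice each, was hybridised to 1 array per pool, per the labels. The authors deposited probe set intensities (linear scale; transgenic array 5.60 to 24147, median 78.7; wild-type array 5.75 to 25799, median 78.3). The submitters' processing notes name RMA, without a version. Since RMA equalises the arrays' distributions, a shift of most genes at once would not show, and background signal shrinks the ratios of dim genes. The number of arrays limits the precision.

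Names came from the platform annotation table, in which 34958 of 45101 probe sets had 1 symbol, 932 several and 9211 none. The last 2 kinds name no gene here. The gene identifiers of all 8 Siglec probe sets matched RefSeq (GRCm38.p6), which lists Siglec5 as an older name of both Siglecf and Siglece. No test fits 1 array per group, so counts past 2-fold stand beside the share over all probe sets or genes, each gene read by its brightest probe set. The members, lists and rules were chosen with earlier results of these data known. The bands of probe sets near a level, the start windows and the chromosomal neighbours were added after the values were seen. Named genes are all members, Il9, Cd22 and Mag, per list as many as 4 genes past 2-fold (where fewer than 2 passed, the 2 farthest from 0), among members past the filter, a fixed set of defining markers and the 5 genes nearest to Siglecf. St3gal1, Chst1, St6gal1, Gne, Ptpn11, Ngp, Ltf and Blnk were named after their values were seen. Python 3.11.15, numpy 2.4.6, pandas 2.3.3 and Biopython 1.88 were used. Alternatives were the pseudocount, quantile normalization, median centring, the filter, probe sets of several transcripts, the mean over probe sets and the size of change.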

Additional observations from a re-analysis of the deposited data

How the results depend on the processing

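No paired analysis was possible because each group has 1 array. The counts of Siglec probe sets and genes past 2-fold, 1 higher and 0 lower, were the same in all recalculations, 16 values for probe sets, with thresholds of 1.5-fold and 3-fold among them, and 14 for genes, at 2-fold only. Of 32 recalculated Siglec differences 31 moved by less than 0.23, and Siglecf moved to 1.91 with a pseudocount of 16, which shrinks differences between low values by construction. It was 2.38 without a pseudocount. With the pseudocount of 16 the count of all probe sets lower by 2-fold was 33, against 50. At 1.5-fold 522 probe sets were higher and 515 lower, and at 3-fold 51 and 5, against 125 and 50. The tuft cell median among members past the filter was 1.03, against 0.41 with no filter and 1.80 at a filter on the 75th percentile. The mast cell median was 1.00 past the filter, 0.51 with no filter, 1.30 leaving out probe sets of several transcripts and 2.83 at the 75th percentile. The B cell median was -0.62 past the filter and -0.36 at the 75th percentile, and that of Cd22 and Mag was -0.36 and, with Cd22 alone left, -0.68. In these the filter itself sets which genes enter. With 1 array a group and no detection calls, differences in dim probe sets such as those of Siglecg and Siglec1 are not resolved here.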
